A study of Mus musculus with 11 samples.

Results

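The mRNA of 10 heat shock chaperone genes was followed in the mouse anterior cingulate cortex (ACC), a part of the prefrontal cortex, after lever-press training. The genes were chosen by name: Hspa1a, Hspa1b, Hspa5, Hspa8, Hsp90aa1, Hsp90ab1, Hsph1, Dnaja1, Dnajb1 and Hspb1. All 10 were found among the 14974 genes with deposited values, and all 10 passed the filter on low values. Bulk RNA-seq values were available from 11 mice, with 1 library per mouse.

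All mice were adult wild-type C57BL/6 animals (C57BL/6J in the study's methods) aged 3 to 5 months, were food-restricted, and were of both sexes. The Trained group held 3 female and 3 male mice that had learned over 9 days to press a lever for food, with 1, then 5, then 10 presses needed for each reward. The Untrained group held 3 female and 2 male mice that were placed in the same chambers and received the same amount of food without pressing. By its methods the study left out 1 further untrained male because it had few reads. The ACC was dissected within 1 h of the last session. Each library is named by its group and by the number in its label. Libraries 1 to 6 (Trained 1, 2 and 3, Untrained 5 and 6) were all from female mice. Libraries 10 to 17 were from the 5 male mice and from 1 female mouse, Untrained 17, so sex and number range largely overlapped. What the number stands for was not given in the labels.

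Heat shock proteins are molecular chaperones: they bind unfolded stretches of other proteins, keep them from aggregating and help them fold. HSP70 proteins do this in cycles of ATP hydrolysis, which J-domain proteins (HSP40) start and HSP110 proteins reset by exchanging the nucleotide, while HSP90 proteins act later on kinases and receptors and small heat shock proteins hold unfolded proteins without ATP. Under heat or other protein damage the transcription factor HSF1 binds heat shock elements, which are inverted repeats of the unit GAA, and raises the inducible members. Neurons express the constitutive members strongly, Hspa8 among them, whose product strips clathrin from synaptic vesicles.

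Levels are given as FPKM, the mapped fragments of a gene scaled to its exon length and to the size of the library. The sources used here do not state the conversion or the annotation, so levels of different genes are compared only roughly. Hsp90ab1, the constitutive cytosolic HSP90, stood highest at a mean of 570.2 ± 45.9 FPKM (SD, n = 11). Hspa8, the constitutive HSP70, followed at 277 ± 32.4 FPKM. Hsp90aa1, the inducible cytosolic HSP90, had 167 ± 6.17 FPKM. Hspa5, the HSP70 of the endoplasmic reticulum (ER), had 140 ± 21.2 FPKM, and Hsph1, the HSP110 exchange factor, had 114 ± 10.1 FPKM. These 5 genes lay above the 97th percentile of all genes in mean level, the lowest of them at the 97.1 percentile. The order between these neighbours was the same in all 11 libraries, except that Hsp90aa1 was above Hspa5 in 10 of 11.

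The other 5 genes were lower. Dnajb1, a J-domain partner of the inducible HSP70, had 37.3 ± 4.29 FPKM (SD, n = 11) and Dnaja1, another J-domain protein, had 19.7 ± 2.45 FPKM. Hspa1b and Hspa1a, the pair of inducible HSP70 genes, had 15.8 ± 4.10 and 14.5 ± 3.41 FPKM. Hspb1, a small heat shock protein, had 7.49 ± 2.97 FPKM, close to the middle of all genes at the 49.2 percentile. The neighbours Dnaja1 and Hspa1b overlapped, with Dnaja1 higher in 9 of 11 libraries. The spread over mice was narrowest for Hsp90aa1, with a coefficient of variation of 3.69% over the 11 libraries, and widest for Hspb1, with 39.6%. The 10 genes together held between 0.382% and 0.472% of the summed FPKM of a library.

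The steps between the low FPKM values gave the relative depth of the libraries, and exon lengths turned it into an estimate of 14300000 to 27100000 fragments per library. The estimate is of the fragments behind the FPKM values and uses GENCODE M21 exon lengths, which the authors may not have used. It is not the number of reads sequenced, which the study's methods give separately. The shallowest was Untrained 17. Libraries 1 to 6 had at least 20700000 fragments and libraries 10 to 17 at most 22100000. At this depth Hspb1, the lowest member, rested on 55 fragments in Untrained 17 and 315 in Untrained 6, for a counting error of 13.5% and 5.63%. Hspa1a rested on 417 fragments or more in each library, with a counting error of at most 4.90%. These errors cover counting only. The tissue label was checked against neuron markers: the 5 markers of excitatory cortical neurons summed to 1612 to 1901 FPKM, and the 6 striatal markers to 52.8 to 82.1 FPKM. Untrained 10 stood apart with 171 FPKM over the 4 choroid plexus markers found, against 1.35 to 11.9 FPKM in the other 10 libraries. Its marker sums were also the highest for excitatory cortical neurons, astrocytes, microglia, mural cells and meninges, but not for the other cell types. In bulk tissue fewer cells of a type and less RNA per cell cannot be told apart.

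**Figure D1:**
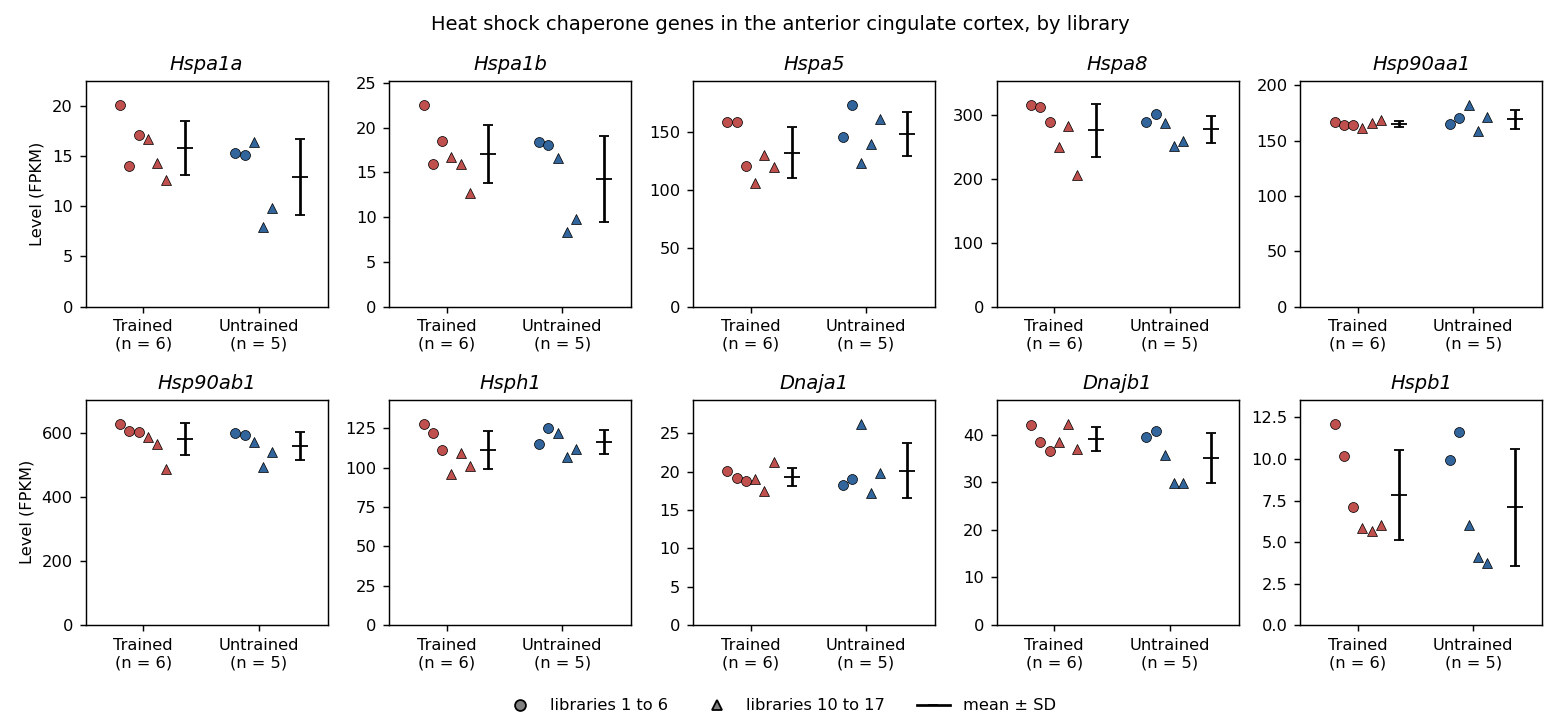
Level of each of the 10 genes (FPKM, axis from 0) in every library, as circles for libraries 1 to 6 and triangles for libraries 10 to 17, with the mean ± SD of each group at its right. The groups overlapped for every gene, and for Hspa1a, Hspa1b, Dnajb1 and Hspb1 the lowest values were those of Untrained 16 and 17.

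Trained mice were compared with untrained mice to find out whether chaperone genes had changed within 1 h of the last session. No member passed the test. With limma on log2(FPKM + 0.1), the higher members at an unadjusted p under 0.05 numbered 0 of 10, where 4.13% of the 14936 genes tested were higher. Likewise 0 of 10 were lower, where 4.20% of all genes were lower. After Benjamini-Hochberg adjustment over all genes, 0 members and 0% of all genes passed 0.05, and the lowest adjusted p of a member was 0.61. The means of 5 members were higher in trained mice and those of 5 were lower, with a median log2 difference of 0.02 beside -0.003 over all genes. The groups overlapped for all 10 members, while 0.763% of all genes had groups that did not overlap. The single differences ran from 0.33 for Hspa1a to -0.17 for Hspa5 on the log2 scale.

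**Figure D2:**
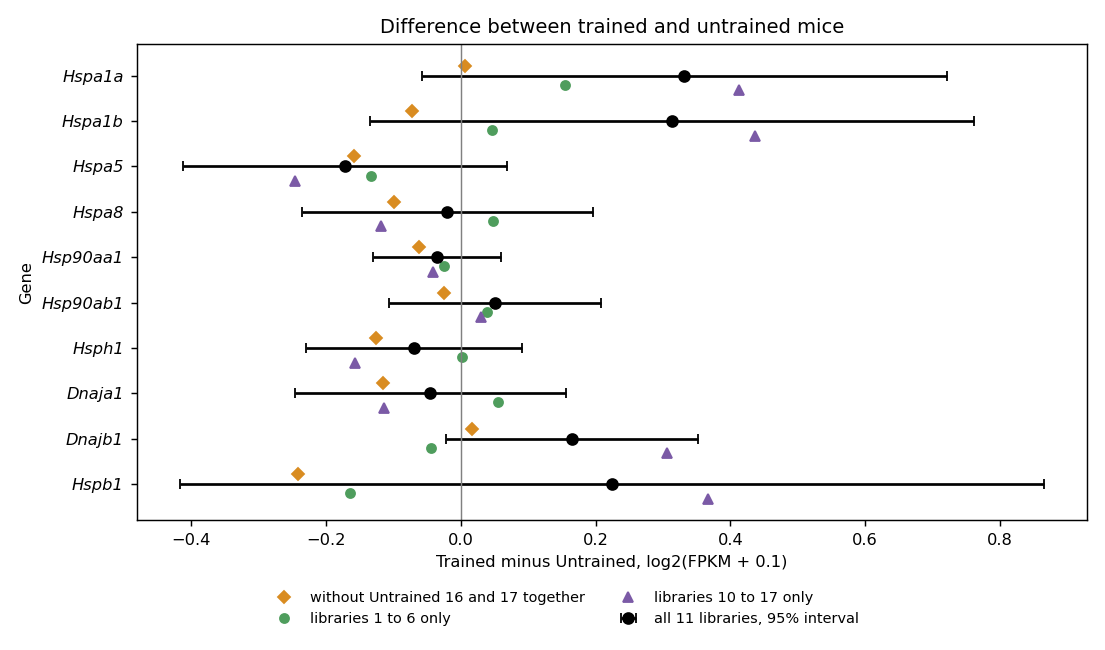
Difference of Trained minus Untrained on the log2(FPKM + 0.1) scale for each gene, with its 95% interval over all 11 libraries in black, and the same difference without Untrained 16 and 17, in libraries 1 to 6 alone and in libraries 10 to 17 alone. All 10 black intervals hold 0, and the values of Hspa1a, Hspa1b and Dnajb1 lie between -0.07 and 0.02 without Untrained 16 and 17.

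The inducible HSP70 genes Hspa1a and Hspa1b are a pair of intronless copies 9951 bases apart on chromosome 17 (GRCm38, 34969190 to 34972156 and 34956436 to 34959238, both on the minus strand). Their upstream sequences are shown because they carry a pair of inverted heat shock units and because they show how alike the copies are. Of the 10 members, 7 matched the RefSeq promoter table (GRCm38.p6). Hspa8, Hsp90aa1 and Hsp90ab1 were not matched. The last 150 bases before the start site are given 5′ to 3′, with the pair of units GAANNTTC in capitals:
Hspa1a (chr17:34972157-34972306, minus strand): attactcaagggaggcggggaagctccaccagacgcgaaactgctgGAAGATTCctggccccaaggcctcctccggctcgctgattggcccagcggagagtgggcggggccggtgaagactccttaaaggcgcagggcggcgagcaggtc
Hspa1b (chr17:34959239-34959388, minus strand): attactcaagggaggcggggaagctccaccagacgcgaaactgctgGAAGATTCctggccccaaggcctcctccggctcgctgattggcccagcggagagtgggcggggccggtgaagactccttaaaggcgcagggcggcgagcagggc
The copies had the same base at 149 of the 150 positions. In each the pair of units began 104 bases before the start site. Such a pair of units, GAANNTTC or TTCNNGAA on either strand, was found in the 250 bases before the start of 12.8% of the 32851 promoters in the table. It was also found before Hspb1, Hsph1 and 1 of 3 annotated starts of Dnaja1, and not before Hspa5 or Dnajb1. The triplet of units GAANNTTCNNGAA or TTCNNGAANNTTC was found in none of the 7 members matched and in 0.466% of all promoters. The copies are alike in the transcript too: 62% of the windows of 51 bases in Hspa1b, the length of a read, also occur in Hspa1a, and 58.6% of those of Hspa1a occur in Hspa1b. The sources used here do not say how reads shared by both were assigned, so the values of the single copies are uncertain. The annotated gene Gm20481 also overlaps Hspa1a on the opposite strand, and whether the counting used strand is likewise not stated.

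Hspa1a had 15.3, 15.1, 16.4, 7.91 and 9.84 FPKM in Untrained 5, 6, 10, 16 and 17. In the trained mice the lowest value was 12.7, the median 15.5 and the highest 20.1 FPKM. The groups overlapped: 3 of the 6 trained libraries were above every untrained library, and Untrained 16 and 17 were below every trained one. The group means were 15.8 ± 2.68 FPKM (SD, n = 6) and 12.9 ± 3.77 FPKM (SD, n = 5). The log2 difference was 0.33 ± 0.18 (SE), with a 95% interval from -0.06 to 0.72 and an adjusted p of 0.62 (limma). An exact two-sided permutation test over the 462 splits gave p = 0.19. Without Untrained 16 and 17 the log2 difference was 0.01. Without Untrained 10 it was 0.43 and passed an unadjusted threshold of 0.05. Untrained 10 had the highest untrained value of Hspa1a, so leaving it out could only raise the difference.

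Hspa1b had 18.4, 18.0, 16.6, 8.31 and 9.78 FPKM in Untrained 5, 6, 10, 16 and 17, and 12.7, 16.3 and 22.5 FPKM as the lowest, median and highest trained values. The same pair of untrained libraries was below all trained ones. Its log2 difference was 0.31 ± 0.21 (SE) with an exact permutation p of 0.26, and -0.07 without Untrained 16 and 17. For the sum of the FPKM of both copies the log2 difference was 0.32 and did not pass an unadjusted threshold of 0.05 in limma. The ratio of Hspa1a to Hspa1b lay between 0.830 and 1.01 in all libraries.

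Dnajb1, at 83608193 to 83612653 on chromosome 8 (GRCm38, plus strand), encodes the J-domain protein that hands substrates to the inducible HSP70. It had 39.5, 40.8, 35.6, 29.9 and 29.7 FPKM in Untrained 5, 6, 10, 16 and 17. The trained values had a minimum of 36.5, a median of 38.4 and a maximum of 42.3 FPKM. Again Untrained 16 and 17 were lowest, and Untrained 5 and 6 lay inside the trained range. The log2 difference of 0.17 ± 0.09 (SE) had the smallest p of the members, with an adjusted p of 0.61 in limma and an exact permutation p of 0.14. It was 0.02 without Untrained 16 and 17. Without Untrained 5 or Untrained 6 it was 0.21 or 0.22 and passed the unadjusted threshold. These libraries held the highest untrained values of Dnajb1, so leaving either out could only raise the difference.

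Hspb1, at 135887919 to 135889563 on chromosome 5 (GRCm38, plus strand), encodes the small heat shock protein known as HSP25 in the mouse. Its upstream sequence is shown because it holds more than 1 pair of units, both in capitals, beginning 117 and 97 bases before the start site:
Hspb1 (chr5:135887769-135887918, plus strand): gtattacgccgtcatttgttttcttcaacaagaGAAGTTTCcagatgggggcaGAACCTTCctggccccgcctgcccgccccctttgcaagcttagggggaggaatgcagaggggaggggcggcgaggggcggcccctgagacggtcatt
Hspb1 had 9.92, 11.6, 6.02, 4.09 and 3.72 FPKM in Untrained 5, 6, 10, 16 and 17. In trained mice it had 12.1, 10.2 and 7.13 FPKM in libraries 1, 2 and 3 and 5.84, 5.66 and 6.05 FPKM in libraries 12, 13 and 14. Within both groups libraries 1 to 6 were the higher ones. The log2 difference between trained and untrained mice was 0.22 ± 0.30 (SE) with an exact permutation p of 0.56, and it was -0.24 without Untrained 16 and 17.

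The same pair of libraries thus held the lowest values of 4 of the 10 members, Hspa1a, Hspa1b, Dnajb1 and Hspb1. The pair was singled out by these low values, so the counts given here describe it and carry no test. Hspa1a and Hspa1b share much of their sequence, so the 4 members are not 4 separate observations. Of all genes tested, 5.20% had their lowest values in these 2 libraries. Among the 16 other HSF1 targets, a list described further on, 3 had this order (Bag3, Hspe1 and Serpinh1, named after their values were seen), and among the 21 cochaperones 2 had it (Bag3 and Sil1). Bag3, a cochaperone of HSP70 that is counted in both lists, had 2.62 and 2.43 FPKM in Untrained 16 and 17 and 3.24 to 4.86 FPKM in the other 9 libraries. Most genes of both lists did not have it: the HSF1 target Chordc1 had 27.2 and 26.6 FPKM in Untrained 16 and 17, inside the 18.9 to 30.1 FPKM of the others, and Dnajb4 had 30.5 and 30.8 FPKM, inside 24.3 to 35.2 FPKM. None of the 5 HSF regulators, 10 other HSP70 and HSP110 genes and 2 other HSP90 genes had this order. It was held by 1 of 17 other HSP40 genes, 1 of 22 unfolded protein response genes and 1 of 10 chaperonins (Hspe1 again). It was also held by 1 of 5 other small heat shock genes and 1 of 2 cold-inducible genes. The endothelial markers (all 6 found) moved alongside, with a sum of 52.5 and 48.3 FPKM in Untrained 16 and 17 and 53.7 to 61.7 FPKM in the others; their part in the result was not tested. The other 6 members did not have both libraries lowest. Hsp90ab1 had 494 and 538 FPKM in Untrained 16 and 17, above only Trained 14, and Hspa8 had 252 and 260 FPKM, above Trained 14 and Trained 12. Hspa5 in Untrained 17 was the second highest of its 11 values.

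**Figure D3:**
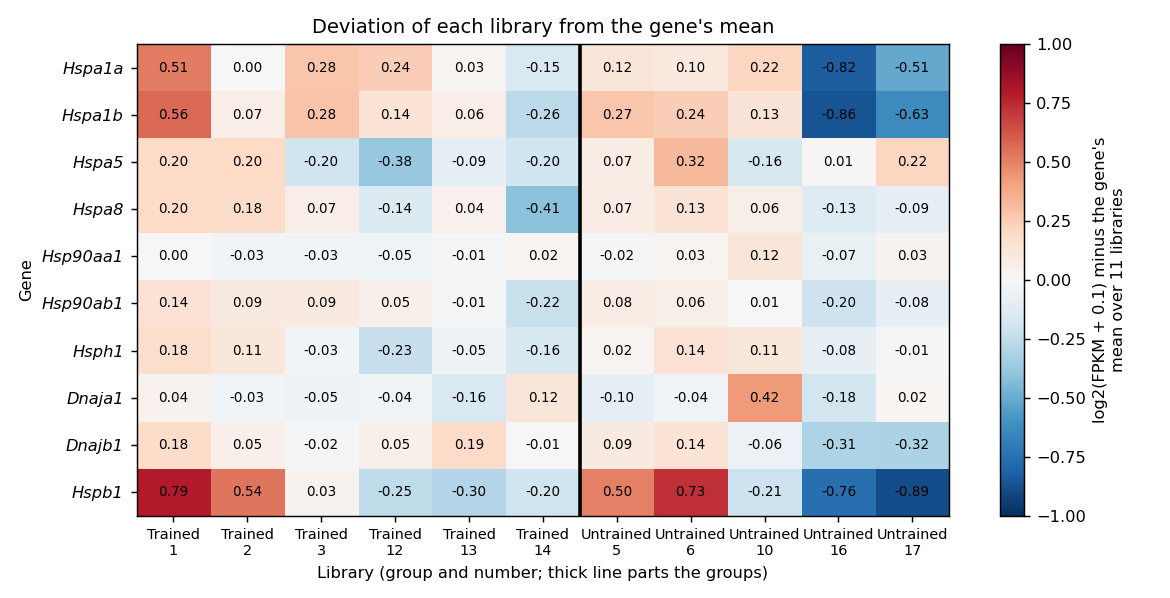
Deviation of each library (columns) from each gene's mean over the 11 libraries (rows), in log2(FPKM + 0.1), red above and blue below the mean. The bluest cells are those of Hspa1a, Hspa1b and Hspb1 in Untrained 16 and 17, between -0.51 and -0.89, and Dnaja1 stands out in Untrained 10 at 0.42.

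Hspa5, known as BiP and located at 34771970 to 34777547 on chromosome 2 (GRCm38, plus strand), is the HSP70 of the ER and a main target of the unfolded protein response. Its upstream sequence is shown because it differs in kind from those above: it holds no pair of heat shock units in the 250 bases before the start but holds the ER stress element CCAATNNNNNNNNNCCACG, in capitals, which begins 65 bases before the start:
Hspa5 (chr2:34771940-34772089, plus strand): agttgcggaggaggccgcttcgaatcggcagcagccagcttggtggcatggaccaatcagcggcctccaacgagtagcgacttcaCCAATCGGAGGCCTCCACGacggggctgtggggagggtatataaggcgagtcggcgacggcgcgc
The start taken for Hspa5 is the RefSeq one, which lies inside the gene span given above, as does the element. On either strand this element was found in 0.113% of all promoters in the table and in none of the other 6 members matched. Hspa5 had 145, 173, 123, 139 and 161 FPKM in Untrained 5, 6, 10, 16 and 17. The trained values ran from 106 over a median of 125 to 158 FPKM. The 3 lowest of all libraries were trained ones, and the rest of the trained values lay inside the untrained range. The log2 difference was -0.17 ± 0.11 (SE), with a 95% interval from -0.41 to 0.07, an adjusted p of 0.66 (limma) and an exact permutation p of 0.20. Without Untrained 10 and 16 it was -0.28 and passed the unadjusted threshold. These libraries held the lowest untrained values of Hspa5, so leaving them out could only widen the difference. Without Untrained 10 alone it was -0.24 and without Untrained 16 alone -0.19, and neither passed the threshold.

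Among the other cytosolic members no difference exceeded 0.07 on the log2 scale in size. Hspa8, on chromosome 9 from 40800984 to 40810087 with the small RNA genes Snord14c, Snord14d and Snord14e inside it, ranged from 207 to 316 FPKM in trained and from 252 to 302 FPKM in untrained mice, with a log2 difference of -0.02 and a 95% interval from -0.24 to 0.20. Hsp90ab1 ranged from 488 to 628 and from 494 to 600 FPKM, and its log2 difference was 0.05 (95% interval -0.11 to 0.21). Both had their lowest value in Trained 14 and their highest in Trained 1. Hsp90aa1 stayed between 162 and 169 FPKM in trained and between 159 and 182 FPKM in untrained mice. With a log2 difference of -0.04 and a 95% interval from -0.13 to 0.06, it had the narrowest interval of the 10.

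Hsph1 had 96.1 to 128 FPKM in trained and 107 to 125 FPKM in untrained mice, and its log2 difference was -0.07 (95% interval -0.23 to 0.09). A pair of heat shock units lay 33 or 54 bases before its start, depending on which of the annotated start sites is taken. Dnaja1 had 17.5 to 21.2 FPKM in trained mice and 17.2 to 26.2 FPKM in untrained mice, with a log2 difference of -0.04 (95% interval -0.25 to 0.16). Its highest value was that of Untrained 10, the library with the highest sums of choroid plexus and several other cell type markers. Without that library the log2 difference of Dnaja1 was 0.05. Smu1 and Gm6297 overlap Dnaja1 on the opposite strand.

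The number ranges of the libraries separated some members more than training did. This split was known from earlier results of these data, so its p-values and counts are descriptive and not independent support. With training as a covariate in limma, 6 of the 10 members were higher in libraries 1 to 6 at an unadjusted p under 0.05, where 11.6% of all genes were higher, and none was lower. After adjustment over all genes 1 of the 10, Hspb1, passed 0.05, beside 9.51% of all genes. Hspb1 had 10.2 ± 1.96 FPKM (SD, n = 5) in libraries 1 to 6 and 5.23 ± 1.04 FPKM (SD, n = 6) in libraries 10 to 17. This was 1.92-fold higher, a log2 difference of 0.94 ± 0.16 (SE), with an adjusted p of 0.0051 in limma. The lowest value in libraries 1 to 6 was 7.13 FPKM and the highest in libraries 10 to 17 was 6.05 FPKM.

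The levels of 3 members did not overlap between the number ranges, beside 7.16% of all genes. They were Hspb1, Hspa8 (289 to 316 against 207 to 288 FPKM) and Hsp90ab1 (592 to 628 against 488 to 588 FPKM), each with the smallest p the exact two-sided permutation test can give, 0.0043. The log2 difference was 0.25 for Hspa8 and 0.16 for Hsp90ab1, with adjusted p of 0.06 and 0.09 in limma. The other members with an unadjusted p under 0.05 were Hspa1b (0.50), Hspa5 (0.24) and Hsph1 (0.17). Hsp90aa1 and Dnaja1 had differences of -0.01 and -0.06.

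Depth and other cell types moved with the number range too. Oligodendrocyte markers (6 of 6 higher at an adjusted p under 0.05, none at 0) summed to 501 to 1036 FPKM in libraries 1 to 6 and 275 to 475 FPKM in libraries 10 to 17. Mural cell markers (3 of 6 higher, none at 0) summed to 57.3 to 67.9 FPKM and to 46.5 to 77.0 FPKM. Striatal neuron markers (1 of 6 higher, 1 lower, none at 0) summed to 62.98 to 82.1 FPKM and to 52.8 to 61.9 FPKM. The 2 markers of oligodendrocyte precursors (1 lower, none at 0) went the other way, at 9.09 to 9.53 FPKM and 10.03 to 11.46 FPKM. Of the sums named here only those of the mural cell markers overlapped between the ranges. Cryab, a small heat shock gene that oligodendrocytes also express, was chosen after its values were seen and had a log2 difference of 0.90 between the ranges (adjusted p = 0.0037, limma). The part of these cells, and of depth, in the differences between ranges was not tested.

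Sex cannot be fully told apart from the number range. Female mice had more of 5 members than male mice at an unadjusted p under 0.05 (limma with training as a covariate), where 9.71% of all genes were higher, and 0 of the 10 passed the adjusted threshold. Hspa5 had the smallest p, at 153 FPKM in females and 124 FPKM in males, with a log2 difference of 0.28 and an adjusted p of 0.08. With sex and number range in the same fit, Hspb1 differed between ranges by 1.39 on the log2 scale. That fit parts sex from range by 1 library alone, Untrained 17, the only female of libraries 10 to 17. Untrained 17 was also the shallowest library and the lowest in Hspb1, so the fit cannot separate sex from range.

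The training difference itself was compared between the sexes and between the ranges. No member had an interaction of training with sex at an unadjusted p under 0.05, where 4.10% of all genes had one. For training and number range 1 of the 10 did, Dnajb1, where 3.33% of all genes did. In Dnajb1 the log2 difference of trained and untrained mice was -0.04 in libraries 1 to 6 and 0.31 in libraries 10 to 17. The interaction was -0.35 ± 0.13 (SE) and had an adjusted p of 0.998 (limma). In libraries 10 to 17 the untrained mice were Untrained 10, 16 and 17.

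The members were also compared with each other over the 11 mice. Of the 45 pairs, 24 held Hspb1, Hspa8 or Hsp90ab1, whose levels separated the number ranges, and for these no pooled correlation is given, because libraries 1 to 6 are only 5. Of the 21 other pairs, 5 had an adjusted p under 0.05 for Pearson's r and 1 for Spearman's rho (permutation tests, adjusted over the 45 pairs). Hspa1a and Hspa1b, which share reads, had r = 0.97 and rho = 0.92 (adjusted permutation p of 0.00045 and 0.013), and r = 0.89 without Untrained 16 and 17. Within the number ranges their r was 0.98.

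Hspa1b and Dnajb1 had r = 0.87 and rho = 0.51 (adjusted permutation p of 0.015 and 0.26). Without Untrained 16 and 17 r was 0.44, so the relation rested on those libraries. Hspa1a and Dnajb1 had r = 0.81 and rho = 0.40 (adjusted permutation p of 0.026 and 0.44) and r = 0.19 without the same libraries. Within the number ranges these pairs had r of 0.83 and 0.75. Hsp90aa1 and Dnaja1 had r = 0.88 and rho = 0.66 (adjusted permutation p of 0.015 and 0.12), and 0.46 without Untrained 10 and 16, with 0.88 within the ranges. Hspa5 and Hsph1 had r = 0.74 and rho = 0.73 (adjusted permutation p of 0.039 and 0.078). Their r was 0.53 without Trained 12 and Untrained 6 and 0.63 within the ranges.

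Among the 12808 genes whose mean reached 1 FPKM, those most like 3 of the members over the 11 libraries were sought by Pearson's r on log2(FPKM + 0.1). For Hspa5 they were Hyou1 (r = 0.96), Pdia6 (r = 0.95) and Manf (r = 0.93). For Hspa1a they were its copy Hspa1b (r = 0.97), Id1 (r = 0.94) and Pnoc (r = 0.93). For Hsph1 they were Etv5, Dlx1as and Tpm2, each with r = 0.92. These r are the highest of many and carry no test. They pool both number ranges, between which Hspa5 and Hsph1 differed at an unadjusted p under 0.05 in limma. No r within the ranges was taken for these genes.

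Other genes of protein folding were taken from fixed lists, and none of them passed an adjusted p of 0.05 between trained and untrained mice. The counts here are at an unadjusted p under 0.05 in limma, where 4.13% of all genes were higher and 4.20% lower. Of 5 HSF regulators, Hsf4, a heat shock factor best known from the lens, was higher, at 12.7 ± 0.96 against 11.2 ± 0.93 FPKM (SD, n = 6 and 5), a log2 difference of 0.18 (exact permutation p = 0.026). Hsf1, the main heat shock factor, had 14.6 ± 2.03 and 15.2 ± 2.31 FPKM and a log2 difference of -0.06. The list's median was -0.01.

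Of 10 other HSP70 and HSP110 genes 2 were lower: Hspa4, an HSP110 exchange factor, by -0.14, and Hspa13, an HSP70 of the microsomes, by -0.21 on the log2 scale. The median of this list was -0.07. Of 2 other HSP90 genes 1 was lower, the ER chaperone Hsp90b1, at 125 ± 10.7 against 139 ± 9.66 FPKM, a log2 difference of -0.15. Of 17 other HSP40 genes 1 was lower, Dnajb4, with a log2 difference of -0.20, and none was higher. Of 8 other small heat shock genes 5 were in the table, and none of them passed.

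Of 21 cochaperones 1 was higher, Sil1, the exchange factor of Hspa5 in the ER, with a log2 difference of 0.14. The HSP90 cochaperone Chordc1 was lower, at 22.4 ± 2.56 against 26.7 ± 2.44 FPKM (SD, n = 6 and 5), a log2 difference of -0.26 (exact permutation p = 0.026). Of 10 chaperonin genes 1 was higher, Hspe1, the mitochondrial partner of HSP60, with a log2 difference of 0.16. Among 16 other HSF1 targets 1 was higher and 2 were lower, all of them named above (Hspe1, Chordc1 and Dnajb4), with a median of -0.04.

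The unfolded protein response list, whose chaperones share the ER with Hspa5, had 22 genes, and the trained mice had the lower mean of 16 of them. By the unadjusted threshold 3 of the 22 were lower and none was higher, where 4.20% of all genes were lower and 4.13% higher. They were Hsp90b1, the disulfide isomerase Pdia3 with a log2 difference of -0.18, and Sel1l, part of the ER degradation machinery, with -0.12. The list's median was -0.08, beside -0.17 for Hspa5 itself and -0.003 for all genes. Between the number ranges 8 of the 22 passed an adjusted p under 0.05, all of them higher in libraries 1 to 6, beside 9.51% of all genes in either direction.

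The cold-inducible RNA-binding genes had higher means in trained mice. Cirbp had 61.3 ± 4.40 against 54.3 ± 4.87 FPKM (SD, n = 6 and 5), a log2 difference of 0.17 with an unadjusted limma p of 0.022 and an adjusted p of 0.56. Rbm3 had 5.32 ± 1.11 against 4.71 ± 0.60 FPKM and an unadjusted limma p of 0.22. Cirbp, too, was lowest in Untrained 16 and 17, at 47.3 and 51.8 FPKM, with 55.6 FPKM or more in the other 9 libraries. Hspe1 and Sil1 shared this order, with Hspe1 at 24.4 and 23.7 FPKM against 26.2 FPKM or more.

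**Figure D4:**
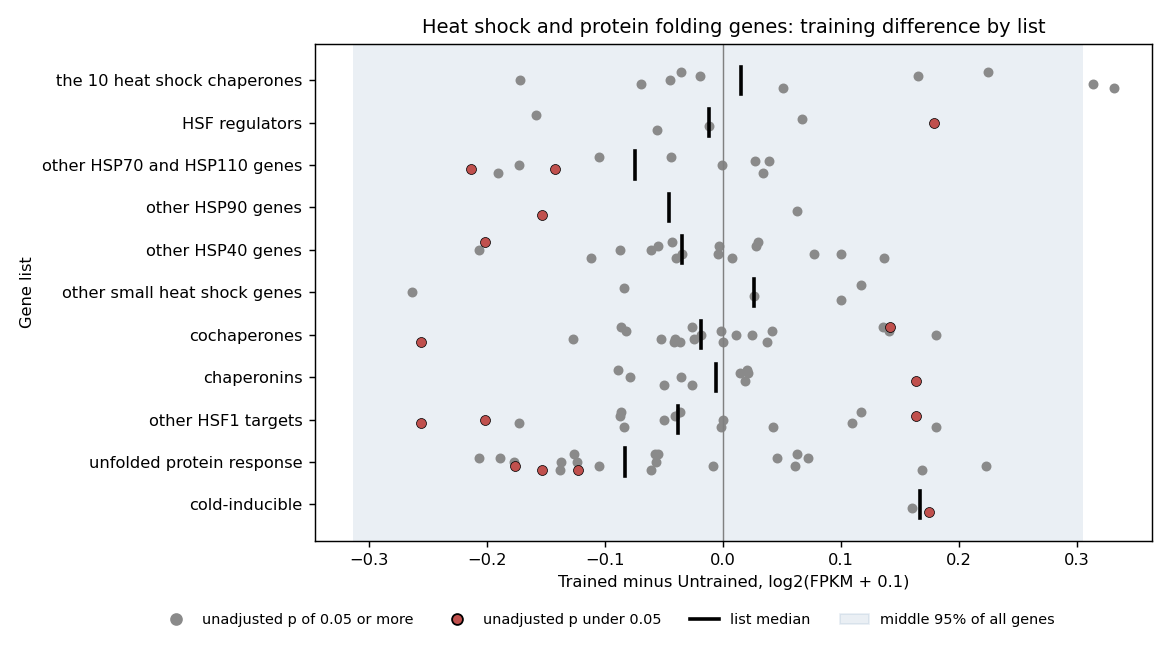
Difference of Trained minus Untrained on the log2(FPKM + 0.1) scale for the genes of each list, with red points at an unadjusted p under 0.05, black bars at the list medians and a band over the middle 95% of all genes. No point of the 10 chaperones is red, and the 2 outside the band are Hspa1a and Hspa1b at 0.33 and 0.31.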

How the data were processed

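Poly(A) RNA of the ACC had been sequenced in paired reads of 51 bases with a stranded kit. FPKM values were deposited by the authors after trimming (Trimmomatic 0.38), alignment to mm10 (Bowtie2 2.3.5.1) and counting by featureCounts of the Subread package (1.6.3). The sources used here do not state the conversion to FPKM, the annotation or the use of strand in counting. A deposited table of the authors' edgeR 3.30.3 comparison (fold changes, p-values, false discovery rates) was not used. Of the deposited names 23 were numbers and were kept as unnamed genes, and 14402 names matched GENCODE M21 (GRCm38).

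The 14936 genes whose mean reached 0.1 FPKM were compared on log2(FPKM + 0.1) with limma 3.58.1 in R 4.3.3 (lmFit, eBayes with trend, no covariate), with Benjamini-Hochberg adjustment over all genes; a fold change on this scale understates the change of low genes. Values are 1 library per mouse. Exact permutation tests used scipy 1.17.1, and correlations 100000 permutations, under Python 3.11.15 with numpy 2.4.6, pandas 2.3.3 and matplotlib 3.10.9. Alternatives were the pseudocount, the filter, 2 normalizations, covariates, weights, subsets of libraries and the sum of both Hspa1 copies. The fit was tested on simulated data. Depth was estimated from low FPKM values that were whole multiples of 1 read within 0.05.

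All 10 members were named, and in each list Hsf1, Cirbp and Rbm3 and up to 3 genes per direction with the smallest p under 0.05. The members, the lists and the split by number range were chosen with earlier results of these data known.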

Additional observations from a re-analysis of the deposited data

Results flagged for a closer look

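Among the 20 combinations of member and group, 1 held a library far from the rest: Dnaja1 in Untrained 10 had 26.2 FPKM, while the 4 other untrained libraries had at most 19.8 FPKM. Chance gives about 1 such library in 20 groups. Untrained 10 was also the library with 171 FPKM over the choroid plexus markers. Its sums were also the highest of all libraries for excitatory cortical neurons (1901 FPKM), astrocytes (552 FPKM) and microglia (143 FPKM). So were those for mural cells (77.0 FPKM) and meninges (21.4 FPKM). They were not the highest for inhibitory and striatal neurons, oligodendrocytes and their precursors, endothelium or blood. The part of any of these cells in the level of Dnaja1 was not tested.

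The training difference of Dnajb1 differed between the number ranges by -0.35 on the log2 scale (libraries 1 to 6 minus libraries 10 to 17; limma adjusted p = 0.998), past an unadjusted threshold of 0.05.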

How the results depend on the processing

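Over 29 alternatives the count of members lower in trained mice was 1 without Untrained 10 and 16 (Hspa5, -0.28) and 0 otherwise. That pair held the lowest untrained values of Hspa5. The count higher was 1 with array weights (Hspa1a, 0.36) and 1 in libraries 10 to 17 alone (Dnajb1, 0.31). Leaving out each library in turn gave 0 to 1 higher and 0 lower. The 1 was Hspa1a without Untrained 10 (0.43) and Dnajb1 without Untrained 5 (0.21) or Untrained 6 (0.22), at an unadjusted limma threshold of 0.05. Each of these fits left out a library among the highest untrained values of that gene. The members' median stayed between -0.09 and 0.09. Of 272 single differences, 245 kept direction and side of the threshold, 6 passed it and 21 changed sign.

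Sign changes were Hsp90ab1 under quantile normalization (-0.0083), Hspa8 with sex as a covariate (0.0013), and Hspa8 (0.044) and Dnaja1 (0.012) with array weights. Without Untrained 16 and 17 they were Hspa1b (-0.072), Hsp90ab1 (-0.025) and Hspb1 (-0.24), and without Untrained 10 and 16 Dnaja1 (0.020) and Hspb1 (-0.015). In females alone they were Hspa8 (0.11), Hsph1 (0.036) and Dnaja1 (0.026). In libraries 1 to 6 alone they were Hspa8 (0.047), Hsph1 (0.0026), Dnaja1 (0.056), Dnajb1 (-0.044) and Hspb1 (-0.16). Leaving out single libraries, Hspa8 ran from -0.061 to 0.061 and Dnaja1 from -0.096 to 0.055. The cause was not tested. No paired analysis was possible because the groups share no replicate number.

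With 5 and 6 mice, the 95% interval of Hspa1a reached a ratio of 1.65 and that of Hspb1 1.82, so changes up to those ratios lay inside the intervals. Number range, sex, depth and marker levels overlap and cannot be told apart in these 11 libraries.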
